A study of Arabidopsis thaliana with 16 samples.

Results

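Transcripts assembled de novo that peaked before light, and that were not raised strongly in both exosome mutants, were examined across the Arabidopsis thaliana seed-to-seedling transition. The deposited annotation holds 2414 de novo transcripts, 1821 built with HOMER and 593 with StringTie. A member was a de novo transcript whose highest mean over the 6 Col-0 groups lay in a seed stage and reached 0.2 CPM (counts scaled to 1e+06 over the nuclear genes and de novo transcripts). Of 1168 transcripts that reached 0.2 CPM in some group, 665 were highest in a seed stage. Another 174 of these were left out as exosome-sensitive, which meant a mean of at least 0.2 CPM and a level at least 3-fold that of wild type, after adding 0.05 CPM to each mean, in both mutants. The remaining 491 were the members, of which 82 were highest in dry seed, 320 after 24 h and 89 after 72 h of stratification. Membership was therefore set by the measured values, and the excess of seed stages over light stages in what follows is the rule itself. The seed-stage means that the rule compared are also those compared between seed stages below, so members' changes between seed stages are given as a description, and rose and fell mark those past a threshold of 0.05 in the fit across all features.

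All samples were of the Col-0 accession and gave rRNA-depleted, strand-specific total RNA libraries, 2 per group and 16 in all. The 6 wild-type groups were dry seed (DS), seed stratified in water in the dark and cold for 24 h (S24) or 72 h (S72), and material moved to liquid medium in continuous light for 6 h (L6), 26 h (L26) or 57 h (L57). DS was neither stratified nor lit, and the L groups had been stratified before light. The lines hen2-4 and rrp4-2, which carry lesions in an exosome cofactor and in an exosome subunit, were sampled once, as seedlings after 57 h of light. Neither mutant was sampled as seed, so sensitivity of a seed-stage RNA to the exosome was judged at a stage where most members were low. The labels do not state whether the 2 libraries of a group were grown apart, and p-values then cover only the spread between the libraries at hand.

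Plants transcribe many long non-coding RNAs, and a large class of them runs antisense to protein-coding genes from start sites near the gene's 3′ end. Many such RNAs are capped by RNA polymerase II transcription and then removed in the nucleus by the RNA exosome, which the helicase HEN2 feeds with non-ribosomal targets and of which RRP4 is a core subunit. In seeds, antisense transcription is known from the dormancy gene DOG1. Dry seeds hold stored mRNA under abscisic acid (ABA) control, and imbibition starts a new programme in which the stored set is replaced. ABA-responsive promoters carry the ABA response element, a G-box-like sequence bound by bZIP factors such as ABI5.

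Members highest in dry seed differed from the others in sequence features, the G-box among them. Before the values, the sequences around the 5′ ends of 7 of the most abundant members are therefore given. Each runs 5′ to 3′ on the member's own strand from 250 bases before the 5′ end to 50 bases after it, and was read from the RefSeq TAIR10.1 chromosomes. Capitals mark the core of the ABA response element (ACGTG or, on the other strand, CACGT), which includes every G-box (CACGTG). They also mark the TATA box (TATAAA), on the member's own strand only. The 7 were picked from the 6 most abundant members of each stage after their matches had been seen, to show windows with and without the G-box. For members highest in DS the windows were chr1:5390855-5391154 (minus strand), with a G-box at -83 and a TATA box at -38, chr2:11898404-11898703 (minus strand), with G-boxes at -201, -87 and -61, and chr5:11615614-11615913 (minus strand), with a G-box at -126. The highest member of S24 had chr1:12096374-12096673 (minus strand), without any of these motifs, and another S24 member had chr1:17295316-17295615 (plus strand), with a G-box at -107. The S72 members had chr2:9720259-9720558 (minus strand), with a TATA box at -186 only, and chr1:13079461-13079760 (minus strand), with a G-box at -15.
HOMER_RNA_00010889: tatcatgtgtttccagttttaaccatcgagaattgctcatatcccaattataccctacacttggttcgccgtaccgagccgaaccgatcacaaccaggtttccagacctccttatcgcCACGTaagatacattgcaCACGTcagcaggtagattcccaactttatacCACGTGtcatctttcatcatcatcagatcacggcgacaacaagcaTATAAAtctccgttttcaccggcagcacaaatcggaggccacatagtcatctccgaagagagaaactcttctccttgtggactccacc
HOMER_RNA_00058069: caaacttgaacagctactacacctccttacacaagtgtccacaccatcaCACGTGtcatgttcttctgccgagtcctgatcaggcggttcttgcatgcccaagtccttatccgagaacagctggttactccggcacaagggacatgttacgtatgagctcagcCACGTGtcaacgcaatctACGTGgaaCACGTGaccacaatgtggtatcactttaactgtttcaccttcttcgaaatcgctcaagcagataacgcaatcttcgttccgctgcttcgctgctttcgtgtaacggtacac
HOMER_RNA_00161151: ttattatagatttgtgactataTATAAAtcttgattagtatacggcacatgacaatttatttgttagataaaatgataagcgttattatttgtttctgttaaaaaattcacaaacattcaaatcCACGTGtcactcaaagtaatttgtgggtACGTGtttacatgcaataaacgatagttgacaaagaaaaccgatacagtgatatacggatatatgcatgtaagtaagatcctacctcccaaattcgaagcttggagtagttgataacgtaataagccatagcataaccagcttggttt
HOMER_RNA_00012888: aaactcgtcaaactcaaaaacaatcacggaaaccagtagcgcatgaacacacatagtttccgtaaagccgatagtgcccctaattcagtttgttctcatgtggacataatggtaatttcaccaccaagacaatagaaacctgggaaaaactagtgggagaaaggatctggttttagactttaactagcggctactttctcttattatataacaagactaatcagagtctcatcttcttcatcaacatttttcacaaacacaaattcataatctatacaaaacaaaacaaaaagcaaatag
STRINGTIE_RNA_00003635: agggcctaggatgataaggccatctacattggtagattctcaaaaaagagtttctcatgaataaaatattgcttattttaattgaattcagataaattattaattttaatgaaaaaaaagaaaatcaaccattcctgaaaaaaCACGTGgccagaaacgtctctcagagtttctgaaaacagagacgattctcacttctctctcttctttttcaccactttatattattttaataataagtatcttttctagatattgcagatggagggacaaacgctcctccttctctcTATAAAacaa
HOMER_RNA_00057945: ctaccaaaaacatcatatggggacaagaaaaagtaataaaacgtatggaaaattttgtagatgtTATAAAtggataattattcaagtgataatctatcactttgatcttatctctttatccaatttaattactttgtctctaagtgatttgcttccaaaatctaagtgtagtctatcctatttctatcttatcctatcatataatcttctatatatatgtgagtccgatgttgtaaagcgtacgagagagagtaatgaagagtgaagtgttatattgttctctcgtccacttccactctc
HOMER_RNA_00031440: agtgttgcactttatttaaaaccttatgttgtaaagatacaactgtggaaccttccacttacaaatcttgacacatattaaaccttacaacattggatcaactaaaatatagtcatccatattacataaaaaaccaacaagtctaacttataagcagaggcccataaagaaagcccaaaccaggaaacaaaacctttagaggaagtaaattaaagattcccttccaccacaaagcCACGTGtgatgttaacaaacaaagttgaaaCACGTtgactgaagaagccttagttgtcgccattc

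In the libraries, nuclear genes and de novo transcripts held between 56615160 and 245934391 estimated counts, and they were 50.2% to 58.8% of all counts in L57 and the mutants and 88.5% to 95.8% elsewhere. Nuclear rRNA took 13.1% of the nuclear counts of DS replicate 1 and at most 2.35% in any other library. HEN2 mRNA was at 29.3 and 27.1 CPM in wild-type seedlings (L57), 129.9 and 124 CPM in hen2-4, against 40.4 and 32.5 CPM in rrp4-2, so that reads of the gene were not lost in the line labelled hen2-4, and RRP4 was at 10.3 and 8.505 CPM in L57 and 13.1 and 9.38 CPM in rrp4-2. Neither level checks the labels, since the lesions need not remove the mRNA. A list of 5 seed-tissue markers summed to between 64286 and 72190 CPM in DS and 58.6 to 72.5 CPM in L57, and a list of 5 seedling markers to between 15.9 and 17.6 CPM in DS and 32904 to 35484 CPM in L57. In bulk RNA, fewer cells of a type and less RNA per cell cannot be told apart, and the shares of tissues change over this series.

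Some members' libraries disagreed within a group. For 430 of the 491 members the 2 libraries of the highest group were within 1.5-fold of each other, with a median difference of 1.18-fold. Of 233 antisense members with at least 1 CPM in some group, 9 differed by more than 2-fold between the 2 libraries of such a group, in 18 cases. In 17 of the 18 the gene on the other strand differed the opposite way, and in all 18 the sum of both differed less between the libraries than the member did. The most abundant member of dry seed was one of them. HOMER_RNA_00022185, antisense to the uncharacterized gene AT1G13360, was at 3.25 and 168 CPM in DS while its host was at 194 and 66.7 CPM, and at 81.7 and 7.002 CPM in S24 against 10.2 and 74.0 CPM for the host. HOMER_RNA_00104009, antisense to the acyltransferase gene AT4G15390, was at 48.7 and 1.84 CPM in DS and 0.593 and 41.1 CPM in S72, with its host at 95.01 and 162 and 77.0 and 33.8 CPM. For these 9 members, reads of member and host cannot be told apart from these files. The libraries were strand-specific, but no source used here names the strand setting with which transcripts were quantified. Counts of calls, motif shares and shares of hosts are also given without the 9.

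The members shared features that the rule did not use. A gene coding for protein lay opposite 439 of them, 89.4%, against 78.5% of all de novo transcripts, 86.7% of the 338 de novo transcripts highest in a light stage and 79.9% of the 573 exosome-sensitive ones. These 439 faced 434 genes, called hosts here. The other 52 faced no such gene, and 22 members lay opposite an annotated non-coding RNA gene or pseudogene. The members were 762 bp long at the median, from 234 to 3481 bp, and 463 had a single exon. HOMER, which builds transcripts without introns, contributed 412. They lay on all 5 chromosomes, with 135, 70, 101, 75 and 110 on chromosomes 1 to 5.

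Most antisense members began in the last part of their host. For 283 the 5′ end lay in the last part of the host gene, nearer its 3′ than its 5′ end, for 36 beyond its 3′ end and for 120 in the first part, and 240 lay wholly inside the host. The share that began in the first part was 27.3%, against 13.7% of light-stage, 23.6% of exosome-sensitive and 24.4% of all antisense de novo transcripts. A protein-coding gene began within 500 bp upstream and ran the other way for 86 members, 17.5%, which was near the 17.8% of all de novo transcripts. The median distance in these 86 divergent pairs was 246 bp. Of the 86 genes 51 (59.3%) were highest in a seed stage, where 31.6% of protein-coding genes were. The gene was highest in the very group of its member in 26 pairs (30.2%), where the shares of protein-coding genes highest in the members' groups averaged 12.5%.

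The ABA response element core was found more often before members highest in dry seed than before the others. On either strand of the 300-base window it was in 49 of 82 windows, 59.8% (95% Wilson interval 48.9 to 69.7%), against 24.7% for members highest in S24, 31.5% for those highest in S72 and 26.7% of the windows of 27443 protein-coding genes. The G-box, which reads the same on both strands and contains the core on each, was in 31 of the 82, 37.8% (28.1 to 48.6%), against 19 of 320 (5.94%) for S24, 13 of 89 (14.6%) for S72 and 7.68% of protein-coding genes. Protein-coding genes highest in DS held the G-box in 19.2% of windows and the core in 40.2%, so both motifs were also commoner before dry-seed mRNAs. Exosome-sensitive and light-stage transcripts held the G-box in 9.25% and 5.62%. The stage that set these classes is a measured value, and the sequence is not, but no test was made of the difference.

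In the 31 dry-seed windows there were 53 G-boxes, with 13 windows holding more than 1, and all 53 began before the 5′ end, at a median of -103 bases. Of them 38 (71.7%) lay between -150 and -30. In windows of protein-coding genes 85.9% of 2430 G-boxes began before the 5′ end, 53.0% lay between -150 and -30, and the median was -80, so a median near the middle of the window is common to both. For protein-coding genes highest in DS, 60% of 425 G-boxes lay between -150 and -30. The share of windows with a G-box was 39.7% over the 68 dry-seed members without a divergent coding gene nearby. Without the members whose libraries disagreed, 30 of 78 dry-seed windows (38.5%) held the G-box and 47 (60.3%) the core. Base composition moved with the same classes. Windows of members highest in DS had a mean GC content of 38.3%, against 34.2% for S24, 35.0% for S72 and 32.2% for protein-coding genes, and its part in the G-box shares was not tested. Position differed too. The 5′ end lay in a host exon for 69 of 82 DS members, 217 of 320 S24 members and 67 of 89 S72 members. Unlike those of protein-coding genes, most members' windows thus reach into another gene, and the part of this was not tested either. On either strand, the TATA box was in 40.1% of members' windows and 52.1% of those of protein-coding genes. By stage it was in 32.9% of windows for DS, 40.0% for S24 and 47.2% for S72. On the transcript's strand in the 60 bases before the 5′ end, it was found for 9.16% of members and 12.7% of protein-coding genes. By stage that share was 7.32% for DS, 10% for S24 and 7.87% for S72, without the same order. A match is a description of the letters in the window and does not show that a factor binds there.

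**Figure D1:**
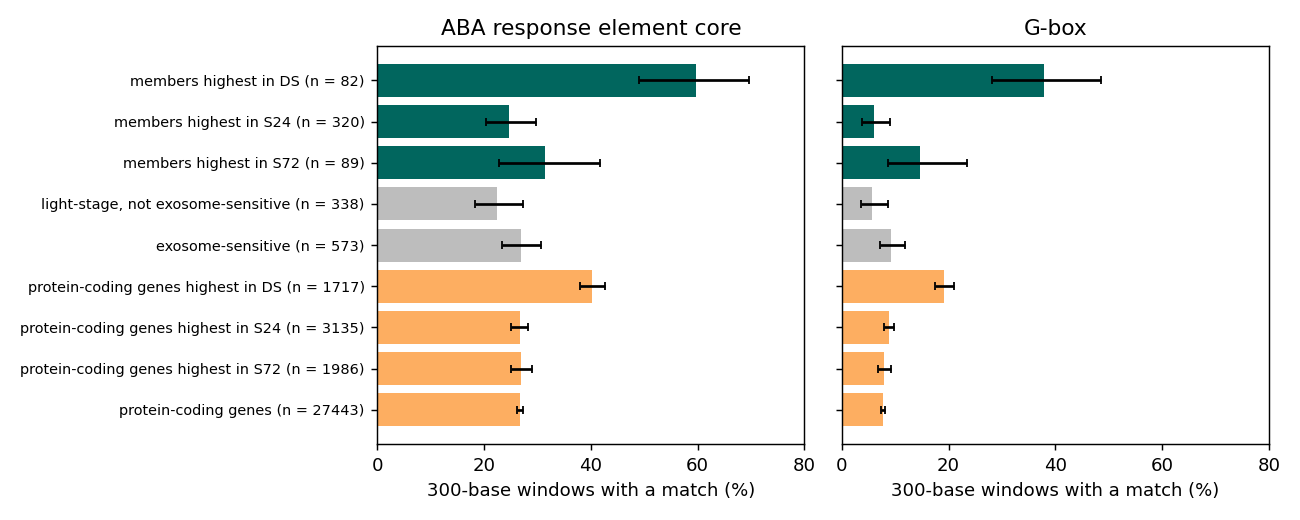
Share of 300-base windows around the 5′ end that hold the G-box (CACGTG) or the ABA response element core (ACGTG), in percent, for the members by highest stage, other de novo sets and protein-coding genes, with 95% Wilson intervals as bars. Members highest in DS stand at 37.8% for the G-box and 59.8% for the core, above members highest in S24 (5.94% and 24.7%).

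Members were low-abundance RNAs. In their highest group the mean was 1.03 CPM at the median and ran from 0.201 to 90.9 CPM, with 42 members above 10 CPM and 241 below 1 CPM. Dry-seed members were the most abundant on this scale, which is not per length, at a median of 2.12 CPM against 0.872 for S24 and 1.02 for S72. All members together summed to 913 ± 144 CPM (SD, n = 2) in DS, 1218 ± 85.3 in S24 and 984 ± 16.2 in S72, and then to 317 ± 10.3 in L6, 210 ± 10.5 in L26 and 123 ± 8.59 in L57. They made up 53.6% to 69.3% of all de novo counts in the seed stages, 16.2% to 18.3% in L57 and 9.14% to 9.94% in the mutants. Just inside the limit of 0.2 CPM stood HOMER_RNA_00036451 at 0.201 CPM and HOMER_RNA_00066512 at 0.202 CPM, and just outside it HOMER_RNA_00159370 at 0.198 CPM and HOMER_RNA_00157903 at 0.197 CPM.

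Members highest in S24 kept much of that level at S72 but had little in dry seed. Relative to S24, their median member stood at 15.8% in DS and 45.1% in S72. Members highest in DS stood at 39.1% of that level in S24 and 27.3% in S72, and members highest in S72 at 13.0% in DS and 56.5% in S24. The group second to the highest was S72 for 192 of the 320 S24 members, L6 for 58 and DS for 41, while 52 of the 82 DS members had S24 second and 59 of the 89 S72 members had S24 second. Over all members the median stood at 19.9% of the highest level in L6, 10.8% in L26 and 4.89% in L57. The highest group exceeded the highest light group 3.95-fold at the median, from 57 members under 1.5-fold to 104 over 10-fold, and 4 members were listed at 0 in every light library. In 451 of 491 the libraries of the highest group did not overlap any light library. These last counts describe the rule.

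**Figure D2:**
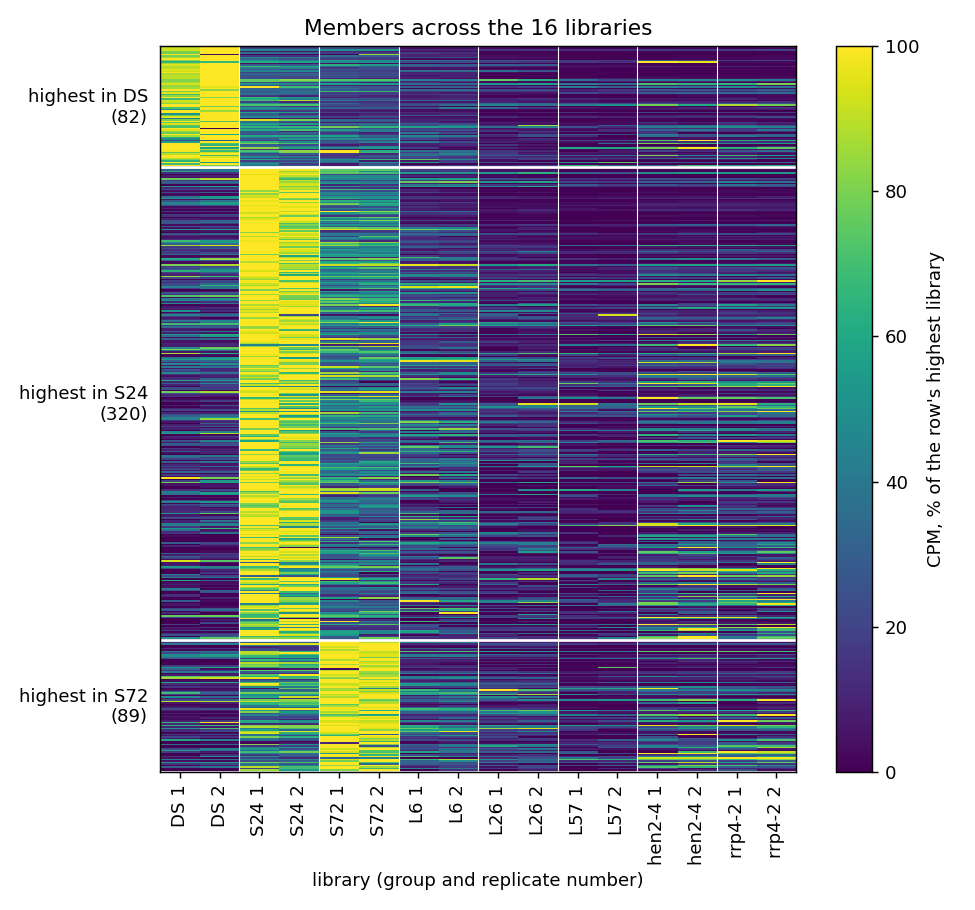
Level of each of the 491 members (one line each, sorted by highest stage) in each of the 16 libraries, as a percentage of its highest library. Blocks of high values mark DS, S24 and S72 in turn, S24 members keep a median of 45.1% in S72, and most members are low in L57 (median 4.89%). Both medians are of group means, as percentages of the highest group mean.

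The 3 classes summed very differently over time. Members highest in DS gave 628 ± 125 CPM (SD, n = 2) in DS, 228 ± 64.2 in S24 and 238 ± 17.5 in S72. The wide spread came from HOMER_RNA_00022185, without which the sums were 536 and 549 CPM in the DS libraries and 192 and 176 CPM in the S24 libraries. Members highest in S24 gave 220 CPM in DS, 836 ± 11.5 in S24, 439 in S72 and 58.4 in L57. Members highest in S72 gave 64.9 CPM in DS, 155 in S24, 307 ± 0.58 in S72 and 61.9 in L6.

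**Figure D3:**
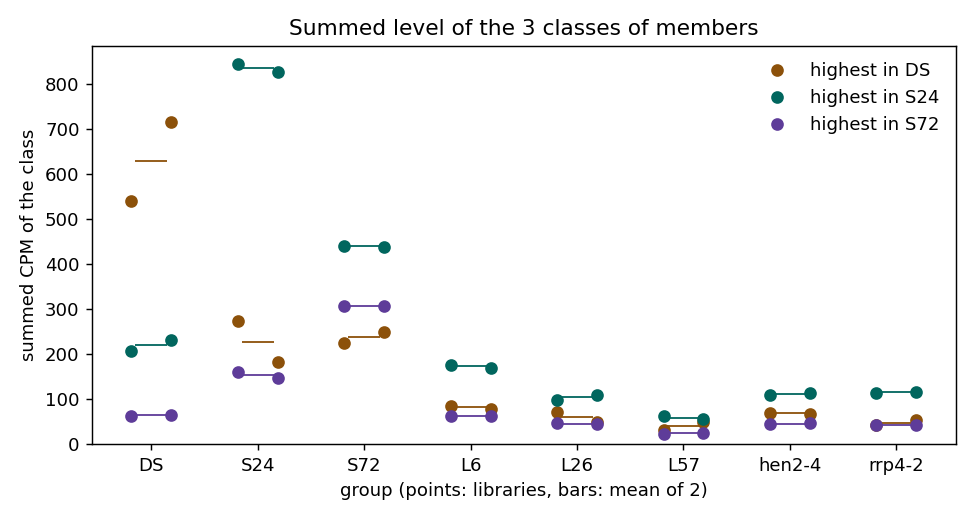
Summed CPM of the members highest in DS, S24 and S72 in each library (points), with the mean of the 2 libraries per group as a line. The S24 class reaches 836 CPM in S24 and the S72 class 307 CPM in S72, and each class is lower in L26, L57 and both mutants than in its own stage.

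The members most abundant in dry seed were highest there by the rule, whether their window held a G-box or not. Apart from HOMER_RNA_00022185, described above, those with a G-box are given first. HOMER_RNA_00010889 (chr1:5389793-5390904, minus strand), antisense to the kelch-repeat gene AT1G15670, was at 44.8 and 48.8 CPM in DS, 10.4 and 10.5 in S24, 10.6 and 8.89 in S72, 1.48 and 1.57 in L6, 1.29 and 0.866 in L26 and 0.300 and 0.142 in L57. DS stood above every other group without overlap, and S24 and S72 overlapped. From DS to S24 it fell by 2.48 on the log2 scale (SE 0.18), while its host rose by 1.32 (SE 0.14) and by a further 2.73 (SE 0.13) from S24 to S72. Here and below, the adjusted p is that of edgeR's quasi-likelihood test with Benjamini-Hochberg adjustment over 27809 genes and de novo transcripts. Fold changes carry edgeR's TMM library factors (0.586 and 0.633 in DS, 0.764 and 0.754 in S24), and CPM does not. Small changes can therefore differ in sign between these scales. Because examples were taken by their highest stage or by the size of a change, the direction of a member's change to or from its highest stage was set by that choice.

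HOMER_RNA_00058069, whose window held 3 G-boxes, lay antisense to AT2G27940, which encodes a RING/U-box protein of the ubiquitin ligase type. It was at 28.5 and 35.1 CPM in DS, 2.36 and 2.01 in S24, 4.05 and 2.84 in S72, 0.952 and 1.10 in L6, 0.140 and 0.148 in L26 and 0 and 0 in L57. The DS libraries stood above every other library without overlap. It fell by 4.18 on the log2 scale from DS to S24 (SE 0.23), and the host fell too, by 1.81 (SE 0.19). HOMER_RNA_00161151, which began beyond the 3′ end of AT5G30490, was at 22.5 and 28.6 CPM in DS, 10.6 and 9.48 in S24, 4.93 and 4.77 in S72, 5.05 and 3.95 in L6, 0.161 and 0.137 in L26 and 0.0177 and 0.0315 in L57. The S72 and L6 libraries overlapped, and the other groups stood apart in falling order. It fell by 1.66 (SE 0.12) and then by 1.23 (SE 0.12) on the log2 scale. In contrast its host rose by 0.87 (SE 0.09) from DS to S24. Members without a protein-coding host also declined. STRINGTIE_RNA_00020532 was at 46.2 and 50.4 CPM in DS, 8.06 and 7.72 in S24, 14.4 and 12.004 in S72, 2.04 and 2.55 in L6, 2.07 and 1.52 in L26 and 1.48 and 1.48 in L57 and fell by 2.93 (SE 0.16), and STRINGTIE_RNA_00081289 was at 40.5 and 43.8 CPM in DS, 19.8 and 18.9 in S24, 22.3 and 23.2 in S72, 5.08 and 4.97 in L6, 6.46 and 6.62 in L26 and 5.35 and 5.58 in L57 and fell by 1.44 (SE 0.08). The latter kept a level of several CPM in the light stages. The former rose from S24 to S72, by 0.57 (SE 0.15).

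The most abundant member of all, by CPM, was nearly absent from dry seed. HOMER_RNA_00012888 (chr1:12095574-12096423, minus strand), antisense to AT1G33360, which encodes a Clp-type protease subunit, was at 0.0703 and 0.0759 CPM in DS, 67.6 and 114 in S24, 65.7 and 72.0 in S72, 0.391 and 0.492 in L6, 7.95 and 6.06 in L26 and 0.0883 and 0.126 in L57. The S24 and S72 libraries stood above 65 CPM and every other library below 8 CPM, with a second, lower level in L26. From DS to S24 it rose by 9.96 (SE 0.37) on the log2 scale, and from S24 to S72 it changed by -0.58 (SE 0.19). The change of its host from DS to S24 was -0.02 (SE 0.08, adjusted p = 0.83). HOMER_RNA_00148801, antisense to AGD5, an ARF GTPase-activating protein of vesicle transport, was at 0.281 and 0.398 CPM in DS, 22.9 and 24.0 in S24, 4.80 and 4.74 in S72, 1.05 and 0.932 in L6, 0.343 and 0.253 in L26 and 0 and 0.126 in L57. It rose by 5.77 (SE 0.29) and then fell by 2.48 (SE 0.22), so that S24 stood alone without overlap with any other group.

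Other abundant S24 members were already present in dry seed. HOMER_RNA_00037079, antisense to NAC017, a transcription factor of mitochondrial retrograde signalling, was at 10.8 and 13.3 CPM in DS, 34.1 and 33.5 in S24, 25.6 and 25.0 in S72, 5.98 and 5.10 in L6, 1.59 and 1.61 in L26 and 0.371 and 0.299 in L57. It rose by 1.18 (SE 0.10) and fell by 0.60 (SE 0.09), and NAC017 itself moved the same way, by 1.55 and then -1.54. HOMER_RNA_00088703, antisense to AT3G04360, which encodes a calcium-dependent lipid-binding protein, was at 34.0 and 42.0 CPM in DS, 39.3 and 37.8 in S24, 18.5 and 17.9 in S72 and 2.05 and 1.98 in L6. Its change from DS to S24 did not pass the test (log2 fold change -0.29, SE 0.12, adjusted p = 0.051), and it fell by 1.26 (SE 0.12) to S72. STRINGTIE_RNA_00003635, with a G-box at -107, lay opposite the annotated long non-coding RNA gene AT1G07323. It was at 3.55 and 3.71 CPM in DS, 25.8 and 24.15 in S24, 19.5 and 18.1 in S72, 14.1 and 13.5 in L6, 13.8 and 16.7 in L26 and 8.44 and 6.82 in L57. It rose by 2.47 (SE 0.11) on the log2 scale. HOMER_RNA_00013255 overlapped SEC3A, an exocyst subunit whose near-identical neighbour SEC3B makes its count uncertain, because reads that mapped to several places were kept at 1 random place. It was at 17.4 and 12.8 CPM in DS, 28.6 and 23.8 in S24, then 20.3 and 14.1 in S72.

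Members highest in S72 included an RNA beside a gene of the low-oxygen response. HOMER_RNA_00063522 (chr2:6983853-6985819, plus strand) lay antisense to PDV2, a plastid division gene, and began 76 bp from the start of HB1, a class 1 haemoglobin induced by hypoxia and transcribed the other way. It was at 0.0422 and 0.0474 CPM in DS, 8.65 and 6.70 in S24, 20.4 and 20.5 in S72, 0.711 and 0.722 in L6, 3.70 and 4.07 in L26 and 0.300 and 0.126 in L57. Its highest libraries were those of S72, with L26 above L6. It rose by 7.08 (SE 0.30) and again by 1.23 (SE 0.16). HB1 was at 0.295 and 0.569 CPM in DS, 118 and 135 in S24, 2200.2 and 2309 in S72, 74.0 and 73.1 in L6, 168 and 164 in L26 and 6.85 and 5.09 in L57 and rose by 7.81 and 3.98. It too was highest in S72 and lowest in DS, with L26 above L6. The host PDV2 changed by 0.40 (SE 0.06, adjusted p = 1.0e-04) from DS to S24 and -0.10 (SE 0.06, adjusted p = 0.19) from S24 to S72. HOMER_RNA_00122205, antisense to the protein phosphatase 2C gene AT4G16580, was at 0 and 0.0190 CPM in DS, 2.03 and 2.87 in S24, 19.3 and 20.7 in S72, 0.321 and 0.105 in L6, 0.902 and 1.15 in L26 and 0.0883 and 0.0315 in L57. It was at or near 0 in DS and highest in S72 without overlap, with rises of 7.39 (SE 0.58) and 2.85 (SE 0.25). The intergenic HOMER_RNA_00057945 was at 10.8 and 11.0 CPM in DS, 26.8 and 22.0 in S24, 57.0 and 58.9 in S72, 1.92 and 1.58 in L6, 0.0751 and 0.0317 in L26 and 0 and 0 in L57, rising through the seed stages and lowest in the light. It rose by 0.85 (SE 0.11) and by 1.07 (SE 0.11).

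HOMER_RNA_00088590, antisense to AT3G61900 of the SAUR family of auxin-responsive genes, was at 3.84 and 4.00 CPM in DS, 7.23 and 6.62 in S24, 23.5 and 20.9 in S72 and 10.8 and 10.3 in L6 and rose with its host from S24 to S72, by 1.50 (SE 0.11) against 1.83 (SE 0.14). HOMER_RNA_00041384, antisense to AT1G75490 of the AP2 type of DNA-binding proteins, was at 1.67 and 2.06 CPM in DS, 3.01 and 1.92 in S24, 14.2 and 14.3 in S72 and 4.59 and 5.35 in L6 and rose by 2.35 (SE 0.19) from S24 to S72. The host was at 715 and 824 CPM in DS, 89.2 and 84.8 in S24, then 107 and 86.2 in S72 and fell by 3.46 (SE 0.17) from DS to S24. In neither step did both pass the test, since the member's change from DS to S24 was 0.08 (SE 0.20, adjusted p = 0.76), and the host's from S24 to S72 was -0.03 (SE 0.16, adjusted p = 0.90). HOMER_RNA_00031440, antisense to the MYB gene HOS10, was at 8.39 and 9.25 CPM in DS, 20.8 and 20.1 in S24, 20.8 and 21.1 in S72, 2.49 and 2.97 in L6, 5.14 and 4.46 in L26 and 3.57 and 2.93 in L57, and its change from S24 to S72 did not pass the test (log2 fold change -0.14, SE 0.10, adjusted p = 0.22).

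To describe when members changed within the seed stages, DS was compared with S24 and S24 with S72. From DS to S24, 276 of the 491 members rose, 60 fell and 155 did not pass the threshold of 0.05. The balance follows the sizes of the stage classes, and nothing is read from it. Of the 320 members highest in S24, 225 rose and 0 fell, and of the 82 highest in DS, 0 rose and 58 fell. The 89 members highest in S72, whose stage does not enter this step, gave 51 that rose and 2 that fell. Over all 27809 genes and de novo transcripts tested, 36.9% were higher and 18.5% lower in S24, against 56.2% and 12.2% of the members. The median log2 fold change was 1.69 for members and 0.44 for all, a difference of 1.25. The level of all genes depended on the scaling. With DESeq2 size factors in place of TMM factors the median of all moved by -0.38 to 0.06, with 7177 higher and 8444 lower, and the members gave 237 higher and 81 lower at a difference of 1.26. Without the 9 members whose libraries disagreed, 274 rose and 58 fell. With each transcript isoform as a separate feature 182 rose.

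Background signal was also highest in S24. Annotated pseudogenes, 3917 in number, had median levels of 0.0489 and 0.0159 CPM per kb in the S24 libraries, at most 0.00499 elsewhere, and were at 0 in 4.47% and 18.3% of cases there against 47.7% to 60.8% in DS. Members stood above that level in S24, at medians of 1.15 and 1.07 CPM per kb, and 10% of the members highest in S24 lay at or below 0.502 and 0.469 CPM per kb. After the pseudogene level of each library was subtracted, the rule found 482 members, all of them among the 491, with 83, 305 and 94 highest in DS, S24 and S72. Members listed at 0 numbered 69 and 50 in the DS libraries, 0 and 3 in S24, 5 and 8 in S72 and 152 and 156 in L57, while the DS libraries held the fewest nuclear counts of the seed stages.

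The largest falls from DS to S24 were of HOMER_RNA_00104009, HOMER_RNA_00027301 and HOMER_RNA_00058069. The first is one of the members whose libraries disagreed, and its fall (log2 fold change -5.32, SE 1.54, adjusted p = 0.010) was -1.46 without DS replicate 1 and no longer passed. HOMER_RNA_00027301, antisense to QKY, a membrane protein at plasmodesmata, was at 16.7 and 19.4 CPM in DS, 0.991 and 1.08 in S24, 0.972 and 0.651 in S72, 0.210 and 0.241 in L6, 0.0429 and 0.106 in L26 and 0.0177 and 0.0787 in L57. Both DS libraries stood above all others. It fell by 4.43 (SE 0.24), whereas QKY rose by 0.87 (SE 0.08). Of the largest rises, HOMER_RNA_00012888 was described above. The others were at 0 in both DS libraries, so that only levels are given. HOMER_RNA_00063989, antisense to FD3, a ferredoxin of non-green tissue, was at 0 and 0 CPM in DS, 3.33 and 2.74 in S24, 4.39 and 4.96 in S72, 0.441 and 0.471 in L6, 0.0751 and 0.0950 in L26 and 0 and 0 in L57. HOMER_RNA_00164245, antisense to AT5G19540 and 141 bp from the start of ASP2, a cytosolic aspartate aminotransferase, was at 0 and 0 CPM in DS, 1.88 and 1.32 in S24, 4.97 and 4.26 in S72, 0.531 and 0.450 in L6, 0.472 and 0.559 in L26 and 0.424 and 0.362 in L57. Both were detected in S24 and S72 libraries alike.

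Between 24 and 72 h of stratification 31 of the 491 rose, 202 fell and 258 did not pass. Here too the class sizes set the balance. The 320 members highest in S24 gave 175 that fell and 0 that rose, and the 89 highest in S72 gave 26 that rose and 0 that fell. Of the 82 members highest in DS, whose stage does not enter this step, 5 rose and 27 fell. Over all features 19.6% were higher and 37.6% lower in S72, against 6.31% and 41.1% of the members, and the median log2 fold change was -1.01 for members and -0.38 for all, a difference of -0.63. With DESeq2 size factors 38 members rose and 179 fell while the median of all moved by 0.16, and with only the 4 libraries compared 59 rose and 219 fell. The number that fell was 134 without S72 replicate 2, and 65 with each isoform as a separate feature, where 19 rose. Without the 9 members whose libraries disagreed, 29 rose and 201 fell.

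Among the largest falls from S24 to S72, HOMER_RNA_00120708 lay antisense to SLY1, the F-box protein that marks DELLA repressors of gibberellin signalling for degradation. It was at 0 and 0.0190 CPM in DS, 1.75 and 2.17 in S24, 0.116 and 0.297 in S72, 0.431 and 0.398 in L6, 0.462 and 0.486 in L26 and 0.813 and 0.693 in L57, and S24 stood above all other groups. It fell by 3.42 (SE 0.42), and the change of SLY1 did not pass the test (log2 fold change -0.10, SE 0.06, adjusted p = 0.18). HOMER_RNA_00122182, antisense to AT4G16024, was at 0.141 and 0.303 CPM in DS, 3.12 and 2.70 in S24, then 0.215 and 0.317 in S72, and HOMER_RNA_00034791 (2.91 and 0.638 CPM in S24) is one of the members whose libraries disagreed. The calls of both were lost when single libraries were left out. Of the largest rises, HOMER_RNA_00122205 was described above. HOMER_RNA_00039239, antisense to UGT85A5, a UDP-glycosyltransferase, was at 0.112 and 0.0948 CPM in DS, 0.172 and 0.134 in S24, 1.23 and 1.22 in S72 and 0.170 and 0.230 in L6 and rose by 2.81 (SE 0.51), whereas UGT85A5 fell by 1.07 (SE 0.17). UGT85A5 lies in a cluster of similar genes, so its count is uncertain. HOMER_RNA_00163412, antisense to the respiratory complex I gene AT5G47570, was at 0 and 0 CPM in DS, 0.411 and 0.305 in S24, 2.59 and 2.11 in S72 and 0.361 and 0.325 in L6 and rose by 2.54 (SE 0.35).

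Members opposite genes of chosen lists, such as a list of 27 genes of ABA and dormancy, are given as examples. Hosts were 430 of the 21670 protein-coding genes with at least 0.2 CPM. Whether members lay opposite listed genes more often than that was not tested. HOMER_RNA_00046457 began in the first part of CYP707A2, whose enzyme breaks down ABA during imbibition. It was at 0.0562 and 0.0664 CPM in DS, 1.58 and 1.23 in S24, 0.241 and 0.189 in S72, 0.501 and 0.440 in L6, 0.172 and 0.222 in L26 and 0.106 and 0.0787 in L57. S24 stood above every other group, and the host was at 26.4 and 28.5 CPM in DS, 194 and 190.4 in S24, then 31.2 and 30.7 in S72. Member and host rose together from DS to S24, by 4.18 (SE 0.44) and 2.49 (SE 0.08), and fell together to S72, by 2.88 (SE 0.36) and 2.81 (SE 0.08). HOMER_RNA_00063701 began in the first part of PIL5, a bHLH factor that represses germination in the dark. It was at 0.253 and 0.313 CPM in DS, 2.81 and 1.73 in S24, 1.26 and 1.29 in S72 and 0.389 and 0.394 in L57 and rose by 2.68 (SE 0.29), after which it fell by 1.01 (SE 0.24) while PIL5 rose by 1.20 (SE 0.12).

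HOMER_RNA_00062963 lay antisense to RGA1, a DELLA repressor of gibberellin responses, at 0.0562 and 0.161 CPM in DS, 0.849 and 0.581 in S24, 0.714 and 0.515 in S72 and 0.270 and 0.586 in L6, and rose by 2.34 (SE 0.56) from DS to S24, with its host at 4.25 (SE 0.08). HOMER_RNA_00038967, antisense to PHYA, the far-red light receptor, was at 0 and 0.00948 CPM in DS, 0.460 and 0.313 in S24, 0.451 and 0.486 in S72 and 0.160 and 0.115 in L6 and rose by 5.67 (SE 0.84), with PHYA at 1.80 (SE 0.08). HOMER_RNA_00164523 lay antisense to AT5G39890, a plant cysteine oxidase of oxygen sensing, at 0.0141 and 0.00948 CPM in DS, 3.22 and 2.58 in S24, 3.63 and 4.19 in S72 and 0.210 and 0 in L6. It rose by 7.62 (SE 1.15), as did the host by 6.04 (SE 0.09). All 3 rose in the same interval as their hosts.

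Opposite genes listed under seed storage and oil bodies, HOMER_RNA_00024466 lay at PER1, a peroxiredoxin of dry seed and not a storage protein. This member was at 0.941 and 1.01 CPM in DS, 3.10 and 2.53 in S24, 0.748 and 0.791 in S72 and 0.861 and 0.817 in L6. It rose by 1.21 (SE 0.26) and fell by 2.05 (SE 0.26), while PER1 fell at both steps, by 0.78 and 1.24. HOMER_RNA_00088101 at the oleosin gene OLEO4, a protein of oil bodies, was at 2.18 and 2.32 CPM in DS, 1.64 and 2.05 in S24, 0.886 and 0.762 in S72 and 0.761 and 0.785 in L6, and its change from DS to S24 did not pass the test (log2 fold change -0.60, SE 0.33, adjusted p = 0.14). Per kb it stood at 0.087% of its host. At loci the study examined, HOMER_RNA_00159384, antisense to the bromodomain gene AT5G55040, was at 0.0703 and 0.0664 CPM in DS, 3.05 and 2.19 in S24, 2.06 and 2.42 in S72 and 0.290 and 0.168 in L6 and rose by 4.94 (SE 0.48). HOMER_RNA_00122965, in the first part of SLP2, a subtilisin-like protease, was at 0.267 and 0.417 CPM in DS, 1.79 and 1.76 in S24, 0.598 and 0.622 in S72 and 0.651 and 0.586 in L6. It rose by 2.05 (SE 0.34) and fell by 1.72 (SE 0.32), while neither change of SLP2 passed (adjusted p = 0.59 and 0.18). The paper reports, from capped start sites, a bidirectional non-coding promoter within SLP2 that was active in dry seed. It also deleted that promoter by CRISPR and reports that sense and antisense transcripts of the locus were lost. In total RNA this member was highest in S24, and whether it comes from that promoter was not tested.

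The hosts themselves, whose levels the rule did not use, were often seed-stage genes. Of 430 hosts with at least 0.2 CPM in a group, 260 (60.5%) were highest in a seed stage, against 31.6% of 21670 protein-coding genes over the same limit, 12.7% of hosts of light-stage transcripts and 31.2% of hosts of exosome-sensitive ones. By stage, 13.7% of hosts were highest in DS, 30.7% in S24 and 16.05% in S72, against 7.92%, 14.5% and 9.16% of protein-coding genes. In each class the commonest highest group of the hosts was the stage of the member. DS was the highest group of 28.8% of hosts of DS members, S24 of 39.6% of hosts of S24 members and S72 of 33.8% of hosts of S72 members. In all, 162 of 439 pairs (36.9%) had the same highest group, where the shares of protein-coding genes highest in the members' groups averaged 12.4%, and in 172 the host was highest in the light. Without the 9 members, 254 of 421 hosts (60.3%) were highest in a seed stage, 158 of 430 pairs (36.7%) had the same highest group, and DS was the highest group of 26.09% of hosts of DS members. The part of reads shared between the strands, seen in the 9 pairs above, was not tested here.

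**Figure D4:**
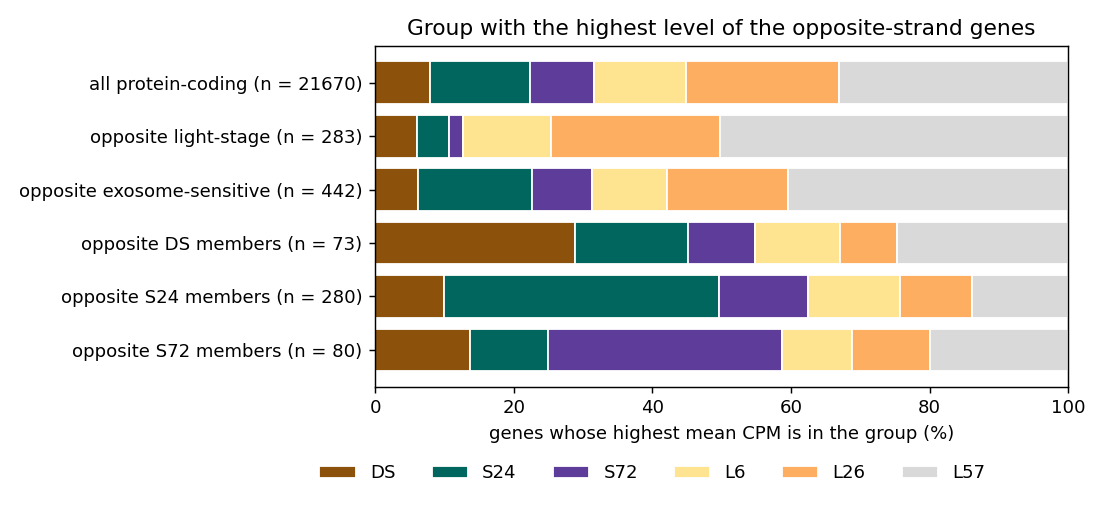
Percentage of host genes whose highest Col-0 group is each of the 6 stages, for hosts of members highest in DS, S24 and S72 and for all 21670 protein-coding genes with at least 0.2 CPM. Hosts peak most often in the stage of their member in the S24 (39.6%) and S72 (33.8%) classes, and 28.8% do so in the DS class.

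Tested across the same steps, 242 of 431 hosts rose and 95 fell from DS to S24, at a median log2 fold change of 0.61 against 0.44 for all features. With DESeq2 size factors 200 rose and 145 fell, and leaving the low-count filter out gave 207 and 124. From S24 to S72, 85 rose and 237 fell, with a median of -0.46 against -0.38 for all, and with organellar genes in the scaling 120 rose and 188 fell. The hosts' median was above that of all features by 0.16 at the first step and below it by 0.08 at the second. From S72 to L6 98 hosts (22.7%) rose and 273 (63.3%) fell, where 36.0% of all features rose and 30.2% fell, and the median was -0.91 against 0.00 for all. Hosts of light-stage transcripts rose in 56.6% of cases, those of exosome-sensitive transcripts in 40.9%. Hosts fell in each class, 42 of 73 for DS members, 175 of 281 for S24 members and 59 of 80 for S72 members.

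Calls were also counted pair by pair. From DS to S24, both rose in 167 pairs and both fell in 17, while the member rose and the host fell in 38 and the reverse held in 15. From S24 to S72, both fell in 124 pairs and both rose in 11, and 27 paired a falling member with a rising host and 7 a rising member with a falling host. Members and hosts each mostly rose at the first step and mostly fell at the second, which by itself makes most pairs agree. Of 237 pairs with both called from DS to S24, 184 had the same direction, and the separate shares of rises among members and hosts alone would give 165. From S24 to S72 it was 135 of 169, against 121 from the shares. Without the 9 members it was 182 of 234 and 134 of 167, against 164 and 120. No test was made of these differences. Among the pairs with a falling member at the first step, the host rose in 15 and fell in 17. Per kb, in the member's highest group, the median member stood at 10.6% of its host, 39 were under 1% and 74 were above it. The ratio of member to host CPM varied. Its median went from 1.81% in DS to 3.91% in S24, 2.75% in S72, 1.51% in L6 and 0.543% in L57, and within single pairs it spanned 14.4-fold over the groups at the median, over 10-fold in 274 pairs and under 3-fold in 31.

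In the exosome mutants the median member stood above its level in wild-type seedlings. The median ratio to L57 was 1.59 in hen2-4 and 1.62 in rrp4-2 after adding 0.05 CPM, at median levels of 0.153 and 0.158 CPM against 0.0530 CPM. The ratio was above 1 for 407 and 417 members and at least 3 for 55 and 48, of which 31 and 24 had at least 0.2 CPM. These counts describe members only, and the rule had used the same means. All de novo transcripts, exosome-sensitive ones included, held 0.0723% and 0.0707% of the nuclear counts of wild-type seedlings. The hen2-4 libraries gave them 0.233% and 0.249%, those of rrp4-2 0.199% and 0.223%. Whether members differed here from other de novo transcripts was not tested. In 24 members the ratio was at least 3 in both mutants, and all 24 were kept because they were under 0.2 CPM in a mutant, HOMER_RNA_00063989 (8.84 and 4.66) and HOMER_RNA_00159384 (3.10 and 3.18) among them. The 0.05 CPM added to each mean was close to the L57 median, so these ratios understate the fold of low members. Of the members just inside the 3-fold limit, HOMER_RNA_00163439 had ratios of 3.16 and 2.995 and HOMER_RNA_00124126 of 3.81 and 2.97 in hen2-4 and rrp4-2. Just outside stood HOMER_RNA_00023828, antisense to the nitrate transporter gene NRT1.1, at 3.73 and 3.003, and HOMER_RNA_00096673 at 3.02 and 3.42. The summed members stood at 226 ± 2.63 CPM (SD, n = 2) in hen2-4 and 205 ± 10.5 CPM in rrp4-2, between the sums of L57 and L6.

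The mutants were compared with each other, which the rule did not do directly. It used the means of both mutants to leave out transcripts raised in both, so members' values here are a description. From hen2-4 to rrp4-2 4 members were higher and 5 lower, where 4.63% of all features were higher and 5.27% lower. The median difference was 0.00 for members and for all. The 4 were HOMER_RNA_00035041, HOMER_RNA_00038366 at the exocyst gene SEC6, HOMER_RNA_00063522 at PDV2 and HB1, and HOMER_RNA_00070054, and the 5 included HOMER_RNA_00035257, HOMER_RNA_00058843 and HOMER_RNA_00063989 at FD3. The number depended on single libraries, with 3 calls without hen2-4 replicate 1 and 4 without rrp4-2 replicate 1. DESeq2 called 22 members, 7 higher and 15 lower. These members, all but HOMER_RNA_00063522 and HOMER_RNA_00063989, are named after their values were seen. One more member had the largest difference. STRINGTIE_RNA_00072694 (chr3:11509381-11510444, plus strand), opposite the annotated long non-coding RNA gene AT3G05945, was at 4.96 and 3.95 CPM in L57, 28.6 and 27.5 in hen2-4, against 0.808 and 0.816 in rrp4-2. The 3 groups did not overlap, with hen2-4 above and rrp4-2 below wild type, and the difference was -5.19 on the log2 scale (SE 0.12, adjusted p = 1.7e-10). After adding 0.05 CPM, its ratio to L57 was 6.24 in hen2-4 and 0.191 in rrp4-2, so the rule kept it. In the wild-type course it was at 18.9 and 19.1 CPM in DS, 17.6 and 16.6 in S24, 14.3 and 14.3 in S72, 6.62 and 6.77 in L6 and 5.52 and 4.61 in L26. HOMER_RNA_00023654, in the first part of UGT71C5, which glucosylates ABA, was at 1.54 and 1.37 CPM in hen2-4 and 0.816 and 0.853 CPM in rrp4-2, lower by a log2 fold change of -0.89 (SE 0.20, adjusted p = 0.014).

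Among genes of the exosome and of RNA decay, a list of 19, 9 (47.4%) rose and 6 (31.6%) fell from DS to S24, where 36.9% of all features were higher and 18.5% lower. From S24 to S72 9 (47.4%) rose and 3 (15.8%) fell, against 19.6% and 37.6%. RRP4 was at 3.23 and 4.03 CPM in DS, 22.0 and 19.5 in S24, 42.8 and 46.1 in S72, 57.9 and 57.7 in L6, 37.9 and 37.8 in L26 and 10.3 and 8.505 in L57 and rose by 2.19 (SE 0.14) and 0.92 (SE 0.12). HEN2 was at 44.8 and 45.3 CPM in DS, 51.1 and 46.2 in S24, 65.3 and 67.2 in S72, 109.9 and 106 in L6, 71.9 and 73.6 in L26 and 29.3 and 27.1 in L57, with changes of -0.21 (SE 0.08) and 0.27 (SE 0.08). From DS to S24 its CPM rose while the TMM-scaled change was negative, so the direction depended on the scaling. Sensitivity of the members to the exosome in seed was not tested, since both mutants were sampled only at 57 h of light.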

How the data were processed

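Total RNA was depleted of rRNA and sequenced with a stranded kit. Per the labels and methods, the authors used HOMER 4.11.1 for trimming and STAR 2.7.9a for mapping to TAIR10, where a read with several hits was given 1 at random, and quantified Araport11 plus de novo transcripts with StringTie 2.1.4. The estimated counts they deposited are unscaled. The TPM the authors deposited served only as a check of which column is which sample. De novo transcripts were kept by the authors where a capped start site lay within reach of the 5′ end.

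Counts were rounded and summed per gene. CPM was taken over nuclear genes and de novo transcripts, without TMM scaling, and set the highest stage of members and hosts. In R 4.3.3, edgeR 4.0.16 fitted 16 libraries in 8 groups by quasi-likelihood after filterByExpr and TMM scaling, tested two-sided, with Benjamini-Hochberg adjustment and a threshold of 0.05. The SE was derived from the fold change and its F statistic. The contrasts of seed with light and of mutant with wild type, which chose the members, were not tested for them. The steps between seed stages and the contrast between the mutants use means that also entered the rule, so members' values there are descriptive. On simulated data with 27809 features the step from DS to S24 recovered 89 of 100 2-fold and 100 of 100 4-fold changes. For 2-fold changes it was 86 from S24 to S72, 88 from S72 to L6 and 79 between the mutants. The changed features had at least 1 CPM in the first group and a fixed dispersion. Recovery at the lower levels of many members was therefore not measured.

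Members and lists were chosen with earlier results of these data known. Named members are the 6 with the highest CPM per stage, those at loci the study names, the 3 highest opposite each gene list, the 3 largest rises and falls per comparison with at least 1 CPM and no overlap of libraries, and the neighbours of the thresholds. Alternatives were other size factors (DESeq2 1.42.0), no filter, isoforms kept apart, organellar genes kept, only the libraries compared, a replicate block, other limits of the rule and each library left out. Wilson intervals and levels near 0 cover counting error only. Genome and annotation are RefSeq's TAIR10.1.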

Additional observations from a re-analysis of the deposited data

Results flagged for a closer look

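STRINGTIE_RNA_00072694 differed between the mutants in opposite directions from wild type, above L57 in both hen2-4 libraries and below it in both rrp4-2 libraries. The difference between rrp4-2 and hen2-4 was -5.19 on the log2 scale (edgeR, adjusted p = 1.7e-10) and stayed between -5.21 and -5.17 when any 1 of the 4 mutant libraries was left out. The rule used the means of both mutants and left out transcripts raised in both, so this value is descriptive.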

How the results depend on the processing

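The rule found 372 to 621 members under other settings, with 482 to 507 when 1 library was left out, and 621 when CPM used TMM library sizes. The split of those 621 by stage is not given here. With each isoform as its own feature, 182 members rose from DS to S24, 84 changed from S24 to S72 (19 higher, 65 lower) and 3 differed between the mutants (1 higher, 2 lower). With only the 4 libraries compared, 59 rose from S24 to S72. DESeq2's Wald test called 22 members between the mutants (7 higher, 15 lower), and 147 hosts fell from DS to S24 by it, or 145 with DESeq2 size factors in edgeR. With 1 library left out, members changed from DS to S24 numbered 268 to 318 (219 to 265 higher, 49 to 57 lower), from S24 to S72 160 to 204 (22 to 27 higher, 134 to 179 lower) and between the mutants 3 to 8 (1 to 6 higher, 1 to 4 lower). Hosts numbered 319 to 336, 285 to 305 and 357 to 364 for DS to S24, S24 to S72 and S72 to L6. The cause of these shifts was not tested, beyond the smaller number of counts or libraries in the fits concerned. HOMER_RNA_00104009 ranged from -6.28 to -1.46 and HOMER_RNA_00034791 from -5.08 to -2.89. With a replicate block, 268 members rose and 58 fell from DS to S24, 28 and 183 from S24 to S72, and 5 and 5 differed between the mutants. Equal numbers did not pair libraries, since deviations correlated between -0.21 and 0.18 over 28 pairs of groups, with 2 above 0.1. Excluding nuclear rRNA, subtracting the pseudogene level and leaving out members with discordant libraries were chosen after seeing the data and moved no count of calls by 1.5 times. At 2 libraries per group and a median of 1.03 CPM, low members limit what can be detected, and 241 stood below 1 CPM.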
